A study of Homo sapiens with 8 samples.

Results

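The chromosome 11 genes described here lie on the long arm of the human chromosome, between 100 and 130 Mb from the end of the short arm in the build hg38. They are the protein-coding genes of the count table that start in this stretch and hold 50 or more counts summed over the 8 libraries, with BIRC3, PDGFD, KDELC2, LAYN, MCAM, THY1, TAGLN and the MMP genes left out by name. This gives 137 members of 58336 gene identifiers in the table, all of them among the 15220 genes tested. The stretch holds 262 protein-coding genes, of which 119 fell short of the minimum, 68 of them with 0 counts, and 6 that reached it were left out by name (BIRC3, MCAM, TAGLN, MMP3, KDELC2 and LAYN). By 10 Mb bin, 27 members start at 100 to 110 Mb, 63 at 110 to 120 Mb and 47 at 120 to 130 Mb. The stretch was chosen with the counts of these libraries known, so the bin medians below are descriptions that carry no test. Members were selected on their position, their summed counts and their names, and the calls of single members come from a fit across all genes tested.

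The cells were SUM159, an established triple-negative line of human breast cancer with mesenchymal features, and by its title the series asks how inflammation acts on cancer cells that lie dormant. The lung-recovered group (3 libraries) was clone 1 of the ITGB4 low cells, given by tail vein to mice that also received bleomycin, a drug that breaks DNA and scars the lung, by way of the trachea. After lung dissociation and a night in culture, tumour cells were sorted by their tdTomato fluorescence. The ITGB4-low group (3 libraries) was the same clone 1 kept in dishes, and the ITGB4-high group (2 libraries) was ITGB4 high cells kept in dishes. Every ITGB4-low and lung-recovered library therefore descends from 1 clone, and what belongs to the clone cannot be told apart from what belongs to low ITGB4. The lung-recovered cells differ from the dish-grown clone in passage through an animal, bleomycin, dissociation and sorting together. Neither mouse strain nor pooling of mice is given in the labels.

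Library totals ran from 20.41 to 27.22 M counts. ITGB4, the integrin beta subunit that names the groups, stood at 376 to 407 CPM (counts scaled by library size with TMM factors) in the lung-recovered, 5.29 to 9.13 CPM in the ITGB4-low and 376 to 419.9 CPM in the ITGB4-high libraries. So the lung-recovered libraries, which carry the genotype label ITGB4 low, had ITGB4 levels near those of the ITGB4-high libraries. The mesenchymal markers VIM, CD44, FN1 and SPARC were present in every library, and of 5 genes listed as low or absent in this line CDH1 and PGR were at 0 counts, ESR1 and EPCAM at no more than 4 counts per group and ERBB2 at 63.4 to 71.6 CPM. Of the markers of other cell types, 7 leukocyte genes summed to 5.49 to 6.58 CPM in the lung-recovered, 4.92 to 5.68 CPM in the ITGB4-low and 2.69 to 3.51 CPM in the ITGB4-high libraries, and all 3 erythroid genes were at 0 counts. The 5 endothelial markers, among them the member ROBO4, summed to 3.45 to 5.11 CPM in lung-recovered, 4.63 to 5.39 CPM in ITGB4-low and 2.34 to 2.57 CPM in ITGB4-high libraries, and the leukocyte marker PTPRC was at 0 counts in both ITGB4-high libraries. The 5 smooth muscle and fibroblast markers summed to 25.5 to 27.1 CPM in lung-recovered, 25.5 to 33.0 CPM in ITGB4-low and 23.96 to 27.65 CPM in ITGB4-high libraries. Among them PDGFRB stood at 10.4 to 11.3 CPM in lung-recovered, 11.9 to 14.9 CPM in ITGB4-low and 3.04 to 3.13 CPM in ITGB4-high libraries. The 5 lung epithelium markers summed to 0.709 to 1.18 CPM in lung-recovered, 1.60 to 1.93 CPM in ITGB4-low and 0.717 to 1.17 CPM in ITGB4-high libraries, with NKX2-1 at 5, 69 and 1 counts over these groups and SCGB1A1 at 0 throughout. The part of these markers in the members' values was not tested. In bulk RNA, fewer cells of a kind and less RNA per cell cannot be told apart.

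Genes of 1 chromosome stretch need not share a function. Neighbours share the number of copies where no break lies between them and, in part, their chromatin. Copy number changes of chromosome arms are common in breast cancer lines, and the level of many transcripts is known to scale with gene copies. This stretch is known for a cluster of inflammatory caspase genes, for the DNA damage kinases ATM and CHEK1, for the Hippo co-activator YAP1 and the apoptosis inhibitor BIRC2, and for the adhesion genes NCAM1, CADM1 and NECTIN1. No DNA measurement was analysed here.

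The members did not move as 1 block: in the ITGB4-low cells those at 100 to 110 Mb were mostly lower than in the ITGB4-high cells, and those at 120 to 130 Mb mostly higher. Of the 137 members, 68 were higher and 40 lower in ITGB4-low (edgeR quasi-likelihood test, adjusted p under 0.05 over all genes) and 29 were not called. This is 78.8% called, against 56.2% of all genes tested (28.6% higher and 27.6% lower). The groups' libraries did not overlap for 116 of 137 members, against 68.7% of all genes. Of all coding genes tested, the class to which the members belong, 61.6% were called and 73.1% had libraries that did not overlap. At 2-fold or more, 26 members were higher and 12 lower, where the background of such calls was 13.1%. The median absolute log2 fold change was 0.56 for members and 0.30 for all genes tested.

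By bin, the 27 members at 100 to 110 Mb had a median log2 fold change of -0.51, with 7 higher and 17 lower in ITGB4-low. The 63 members at 110 to 120 Mb had a median of 0.22, with 33 higher and 18 lower, and the 47 at 120 to 130 Mb a median of 0.38, with 28 higher and 5 lower. With bin borders set 5 Mb closer to the centromere the 3 medians were 0.38, -0.32 and 0.51, and 5 Mb further out they were -0.32, 0.51 and 0.46, so the sign of a bin depends on its borders. The median over all genes tested was 0.0009 and that over 567 tested coding genes of the rest of chromosome 11 was -0.04.

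The lung-recovered cells showed the same order of bins against ITGB4-high. Here 64 members were higher, 33 lower and 40 not called, which is 70.8% called against 51.2% of all genes tested (26.2% higher and 25.0% lower), and libraries did not overlap for 83.9% of members against 66.8% of all genes. For all coding genes tested these shares were 56.5% and 71.1%. At 2-fold or more, 14 members were higher and 7 lower, beside 10.6% of all genes. The bin medians were -0.70 at 100 to 110 Mb (7 higher, 18 lower), 0.19 at 110 to 120 Mb (29 higher, 13 lower) and 0.43 at 120 to 130 Mb (28 higher, 2 lower). This comparison and the one before share the ITGB4-high libraries, so their likeness is no independent result.

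Between the lung-recovered and the dish-grown ITGB4-low cells fewer members were called. Here 24 were higher, 29 lower and 84 not called, which is 38.7% against 30.1% of all genes tested (14.7% higher and 15.4% lower), and 54.7% had libraries that did not overlap against 43.3% of all genes. For all coding genes tested these shares were 34.0% and 47.3%. For the coding genes of the rest of chromosome 11 they were 37.7% and 52.9%, close to those of the members. At 2-fold or more, 5 were higher and 2 lower, beside 5.51% of all genes. The bin medians were -0.09, -0.03 and -0.0001 in order along the chromosome, beside 0.07 for the rest of chromosome 11. The plot of fold changes by position shows changes of level along the stretch in both comparisons with ITGB4-high. These changes do not fall at the bin borders, and none like them is seen between the groups of clone 1 cells.

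**Figure D1:**
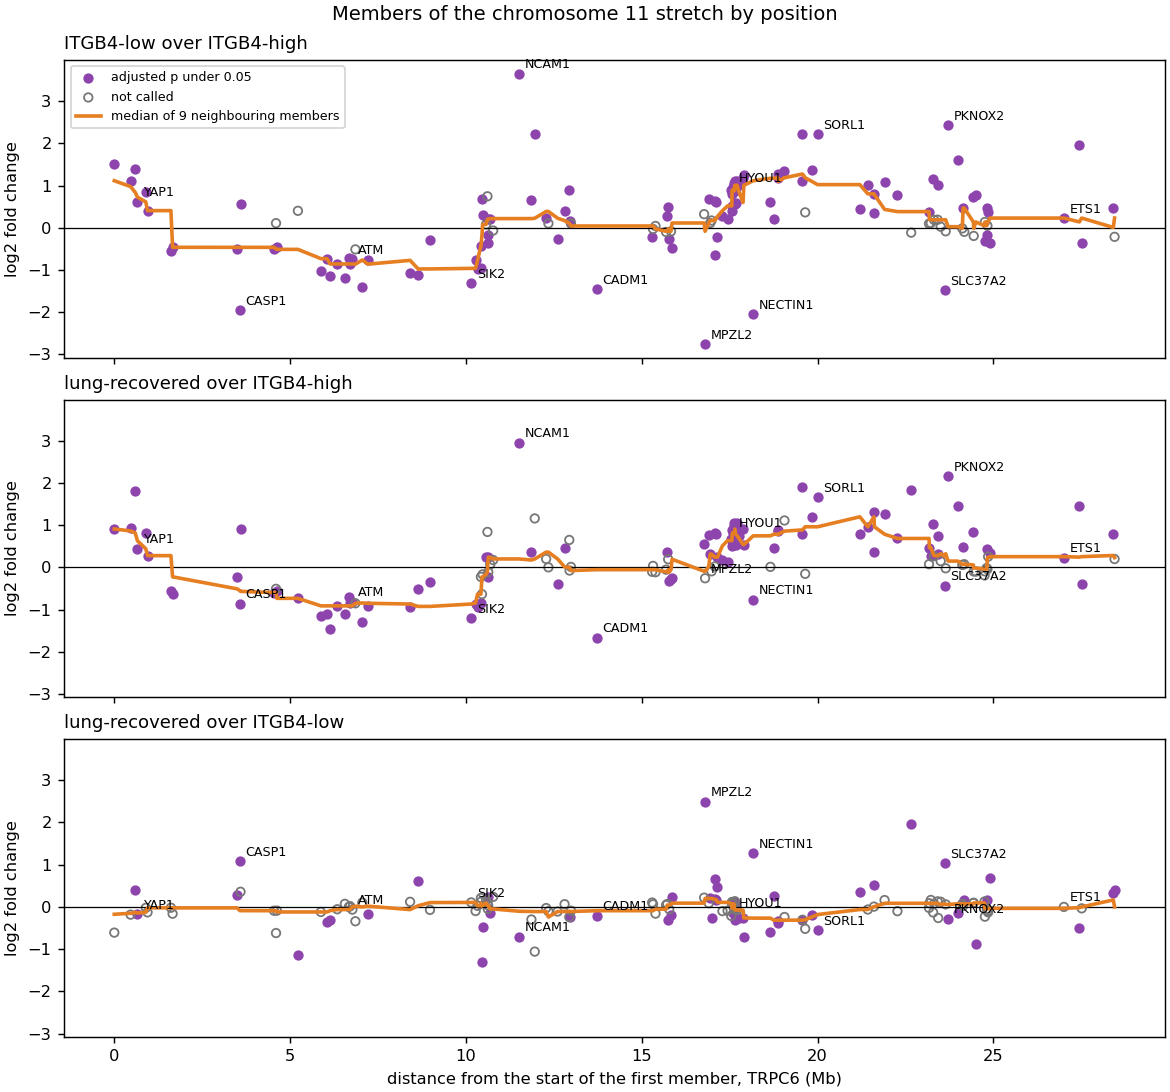
Log2 fold changes (vertical axis) of the 137 members by distance in Mb from the start of the first member, TRPC6 (horizontal axis), for ITGB4-low over ITGB4-high (top), lung-recovered over ITGB4-high (middle) and lung-recovered over ITGB4-low (bottom). Filled points are members called by edgeR at an adjusted p under 0.05, open points were not called, and the line is the running median of 9 neighbouring members; it lies below 0 between about 2 and 10 Mb in the upper panels and near 0 throughout the lowest panel.

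Single libraries show the same split. Expressed as the median log2 deviation of the members from the mean of the 3 groups, the 100 to 110 Mb bin lay at -0.23, -0.19 and -0.26 in the lung-recovered libraries, at -0.13, -0.19 and -0.16 in the ITGB4-low libraries and at 0.35 and 0.42 in the ITGB4-high libraries. The 120 to 130 Mb bin lay at 0.20, 0.16 and 0.17 in the lung-recovered, at 0.12, 0.15 and 0.12 in the ITGB4-low and at -0.28 and -0.25 in the ITGB4-high libraries. In both bins the 6 libraries of clone 1 stood together and the 2 ITGB4-high libraries on the other side of 0. Each gene was centred on the mean of the 3 groups, so these opposite sides restate the fold changes above. The single libraries add how close the replicates of a group lay. Summed over members, the stretch took 1.24 to 1.26% of all counts in the lung-recovered, 1.26 to 1.28% in the ITGB4-low and 0.917 and 0.935% in the ITGB4-high libraries. For the 100 to 110 Mb bin alone these shares were closer, at 0.180 to 0.185% in lung-recovered, 0.191 to 0.199% in ITGB4-low and 0.195 and 0.205% in ITGB4-high libraries.

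Set against the other 10 Mb bins of the genome, the ends of the stretch were far from the middle of the distribution. The stretch was chosen with the counts known, so these ranks are descriptions that carry no test. They hold for these borders only, and no ranks were made for bins with shifted borders. Among 231 bins with at least 20 tested coding genes, the medians of ITGB4-low over ITGB4-high ran from -0.67 to 0.77, with quartiles of -0.08 and 0.12. Genes left out by name and tested genes short of 50 counts were counted here as well. At 120 to 130 Mb this brings in ESAM (47 counts, log2 fold change 0.86), where the median of members alone was 0.38. The 100 to 110 Mb bin (30 genes, -0.51) ranked 2 from the lowest and the 120 to 130 Mb bin (48 genes, 0.41) 6 from the highest. The bin between them (67 genes, 0.23) ranked 32 from the highest. Against ITGB4-high the lung-recovered cells gave a rank of 1 from the lowest for 100 to 110 Mb (-0.66) and of 5 from the highest for 120 to 130 Mb (0.39). Between the groups of clone 1 cells, the same 3 bins had medians of -0.08, -0.03 and -0.01, within a genome range of -0.21 to 0.18. On chromosome 11 itself, the bin next to the stretch on its inner side, 90 to 100 Mb, had a median of 0.14 in ITGB4-low over ITGB4-high, and the outermost one, past 130 Mb, a median of 0.61 over 8 genes.

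**Figure D2:**
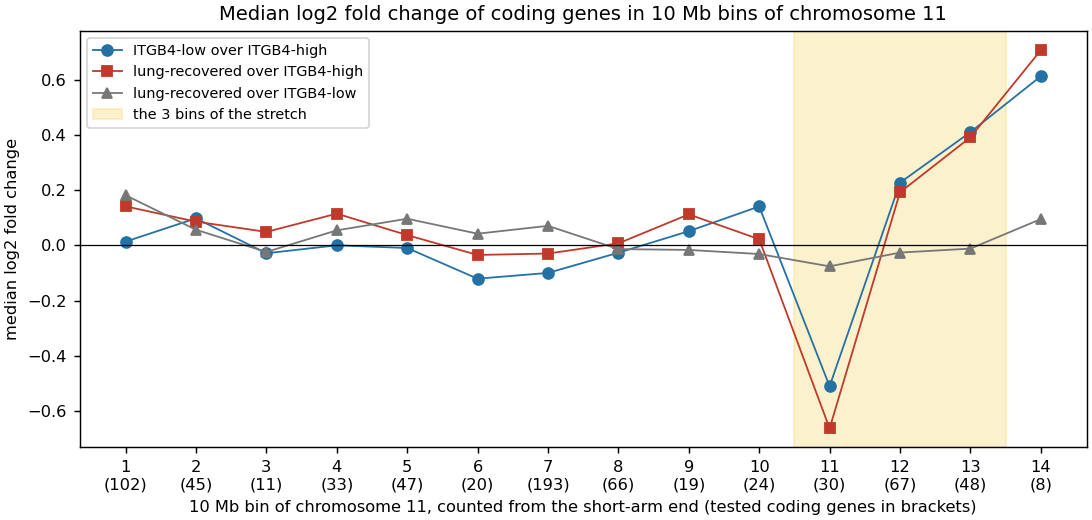
Median log2 fold change (vertical axis) of tested coding genes in consecutive 10 Mb bins of chromosome 11 (horizontal axis, number of genes in brackets), with the 3 bins of the stretch shaded. The bins before the stretch lie between -0.12 and 0.14 for ITGB4-low over ITGB4-high, and the first shaded bin lies at -0.51, below all of them.

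At finer scale the members were divided into 7 segments of neighbours, some of which went mostly one way while others were mixed. The segments were picked after the values were seen, so their medians are descriptions only. The first 6 members, TRPC6 to TMEM123 (101451564 to 102470384), were all higher in ITGB4-low than in ITGB4-high, with a median log2 fold change of 0.98. The next 9, DCUN1D5 to GUCY1A2, had 1 higher, 6 lower and a median of -0.46. From CWF19L2 to C11orf1 (107326345 to 111885975, 4.56 Mb), 19 consecutive members all had negative values, 18 of them called lower, with a median of -0.86. The 31 members CRYAB to MPZL2 were mixed, with 13 higher, 8 lower and a median of 0.10. UBE4A to TRIM29 (118359585 to 120185529) held 26 members, 21 higher and 3 lower with a median of 0.62, and OAF to ZNF202 (120210767 to 123741675) held 15, of which 14 were higher, none lower and the median was 1.09. The last 31, VWA5A to PRDM10, were mixed again, with 13 higher, 5 lower and a median of 0.14. For the lung-recovered over ITGB4-low cells the medians of these 7 segments were -0.15, -0.09, 0.00, -0.05, -0.03, -0.18 and 0.07, and for lung-recovered over ITGB4-high 0.86, -0.57, -0.91, 0.01, 0.69, 0.89 and 0.25.

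**Figure D3:**
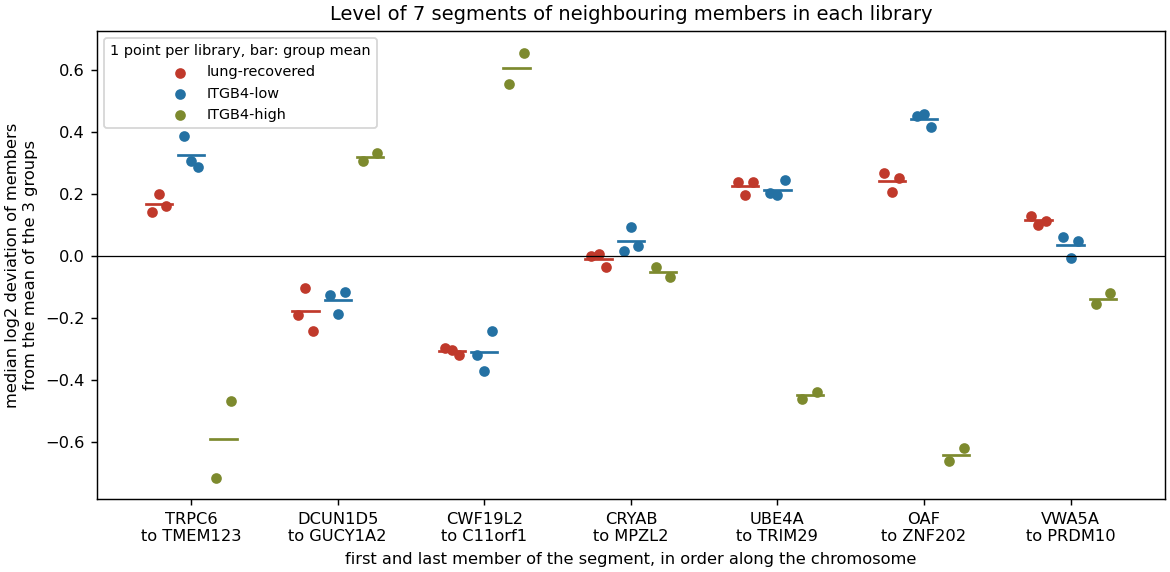
Median log2 deviation from the mean of the 3 groups (vertical axis) of 7 segments of neighbouring members (horizontal axis, in order along the chromosome) in each library, with lung-recovered left, ITGB4-low in the middle and ITGB4-high right and a bar at the group mean. In the segment CWF19L2 to C11orf1 the ITGB4-high libraries lie at 0.56 and 0.66 and the 6 clone 1 libraries between -0.37 and -0.24; in the segment OAF to ZNF202 the ITGB4-high libraries lie at -0.66 and -0.62 and the clone 1 libraries between 0.21 and 0.46.

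Neighbouring members resembled each other more than members taken at any distance in both comparisons with ITGB4-high. Over 136 pairs of neighbours the median absolute difference in log2 fold change was 0.53 for ITGB4-low over ITGB4-high, beside 0.81 over all 9316 pairs of members. For lung-recovered over ITGB4-high these values were 0.41 and 0.74. For lung-recovered over ITGB4-low they were 0.26 and 0.27, so neighbours there were as far apart as any members. Over 3385 pairs of members in the same bin the value was 0.72 for ITGB4-low over ITGB4-high. For lung-recovered it was 0.61 over ITGB4-high and 0.27 over ITGB4-low. Of the members, 46 overlap another member, and reads may have been exchanged within such pairs. No test was made of these differences or of the part of such reads in them. Across the members, Spearman correlations of the log2 fold change ran from -0.19 to 0.08 with mean CPM, exon length and gene length (137 genes of the same libraries, a description over the 3 comparisons). The genes of other types in the stretch, 5, 9 and 5 per bin, had medians of -0.60, 0.74 and 0.80 for ITGB4-low over ITGB4-high. Of these genes 80.0%, 44.4% and 40.0% were called, beside 56.2% of all genes tested. For lung-recovered over ITGB4-high their medians were -0.27, 0.52 and -0.21. In the last bin this is the opposite sign to that of the members (0.43).

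The members are taken by role in what follows. The count of each list stands beside 28.6% higher and 27.6% lower of all genes tested for ITGB4-low over ITGB4-high, and 14.7% and 15.4% for lung-recovered over ITGB4-low, and the lists differ in how their members spread over the bins.

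The apoptosis, caspase and Hippo members lie mainly at the inner end of the stretch. Of 8 members, 4 were higher, 2 lower and 2 not called in ITGB4-low against ITGB4-high (median log2 fold change 0.13), and 2 were higher and 2 lower in lung-recovered against ITGB4-low (0.02). YAP1 (ENSG00000137693, chr11:102110461-102233423), the transcriptional co-activator restrained by the Hippo kinases, had 379, 361 and 359 CPM in lung-recovered, 413, 408 and 419.7 CPM in ITGB4-low and 262 and 278 CPM in ITGB4-high libraries. The libraries of the 3 groups did not overlap. YAP1 was higher in ITGB4-low than in ITGB4-high (log2 fold change 0.61 with SE 0.05, edgeR adjusted p = 1.08e-09) and lower in lung-recovered than in ITGB4-low (log2 fold change -0.17 with SE 0.04, edgeR adjusted p = 0.00285). BIRC2, a ubiquitin ligase that blocks cell death below the TNF receptor and is the next member after YAP1, had 137, 134.9 and 136 CPM in lung-recovered, 154, 133 and 128 CPM in ITGB4-low and 74.6 and 79.8 CPM in ITGB4-high libraries. Both clone 1 groups stood above the ITGB4-high libraries without overlap (log2 fold change 0.84 with SE 0.06, edgeR adjusted p = 1.26e-09 for ITGB4-low over ITGB4-high).

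The inflammatory caspases CASP1 and CASP4, further along, were lower in the clone. CASP1 (chr11:105025443-105035250), the inflammasome protease that matures interleukin 1 beta and interleukin 18, had 10.5, 11.7 and 12.9 CPM in lung-recovered, 4.03, 6.10 and 6.32 CPM in ITGB4-low and 20.6 and 22.1 CPM in ITGB4-high libraries. It was lowest in ITGB4-low (log2 fold change -1.95 with SE 0.13, edgeR adjusted p = 1.41e-10), and in the lung-recovered cells it was higher than in the dish-grown clone (log2 fold change 1.09 with SE 0.13, edgeR adjusted p = 1.74e-06) yet below ITGB4-high (log2 fold change -0.86 with SE 0.12, edgeR adjusted p = 4.03e-06). CASP4, the caspase that senses bacterial lipopolysaccharide inside cells, showed the same order with smaller steps, at 33.8, 30.5 and 33.2 CPM in lung-recovered, 27, 26.4 and 27.4 CPM in ITGB4-low and 36.8 and 39.2 CPM in ITGB4-high libraries. Its log2 fold changes were -0.50, 0.27 and -0.22 for ITGB4-low over ITGB4-high, lung-recovered over ITGB4-low and lung-recovered over ITGB4-high, the last of which was no longer called without ITGB4-high replicate 2. CARD16, a near copy of the CASP1 prodomain, had 2.81, 3.64 and 2.63 CPM in lung-recovered, 2.53, 2.53 and 2.01 CPM in ITGB4-low and 1.81 and 1.36 CPM in ITGB4-high libraries, and reads of CASP1 and CARD16 may be split between them.

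The DNA damage and checkpoint members include the checkpoint kinases ATM and CHEK1. Of 11 members, 3 were higher and 5 lower in ITGB4-low against ITGB4-high (median -0.09), and 2 were higher and 2 lower in lung-recovered against ITGB4-low (-0.03). ATM (ENSG00000149311, chr11:108222484-108369102), the kinase that answers DNA double-strand breaks, had 33.5, 33.3 and 33.3 CPM in lung-recovered, 38.0, 30.1 and 36.3 CPM in ITGB4-low and 52.8 and 64.2 CPM in ITGB4-high libraries. The ITGB4-high libraries lay above all 6 of the clone (log2 fold change -0.75 with SE 0.08, edgeR adjusted p = 2.79e-07 for ITGB4-low and log2 fold change -0.81 with SE 0.08, edgeR adjusted p = 1.20e-07 for lung-recovered over ITGB4-high). NPAT, a co-activator of histone genes at the start of S phase that is read in the opposite direction from a start beside that of ATM, had 18.2, 17.9 and 17.1 CPM in lung-recovered, 17.1, 16.6 and 18.9 CPM in ITGB4-low and 30.0 and 33.8 CPM in ITGB4-high libraries. Its log2 fold changes against ITGB4-high, -0.86 in ITGB4-low and -0.84 in lung-recovered, were close to those of ATM. CUL5, the scaffold of a family of ubiquitin ligases, had 26.3, 27.5 and 26.4 CPM in lung-recovered, 24.6, 26.0 and 25.5 CPM in ITGB4-low and 56.7 and 59.0 CPM in ITGB4-high libraries. This was the lowest fold change of the list (log2 fold change -1.19 with SE 0.06, edgeR adjusted p = 1.68e-12). H2AFX (chr11:119093854-119095467), the histone variant that is phosphorylated at DNA breaks, had 298, 325 and 310.0 CPM in lung-recovered, 378, 403 and 380.5 CPM in ITGB4-low and 190.3 and 171 CPM in ITGB4-high libraries, and rose in ITGB4-low (log2 fold change 1.10 with SE 0.06, edgeR adjusted p = 1.75e-12). In the lung-recovered cells it was lower than in the dish-grown clone (log2 fold change -0.31 with SE 0.05, edgeR adjusted p = 3.36e-05). CHEK1 (chr11:125625136-125676255), the checkpoint kinase of replication stress near the outer end of the stretch, had 68.5, 66.8 and 67.1 CPM in lung-recovered, 61.0, 58.4 and 60.6 CPM in ITGB4-low and 63.2 and 65.0 CPM in ITGB4-high libraries. It was not called for ITGB4-low over ITGB4-high (log2 fold change -0.09 with SE 0.05, edgeR adjusted p = 0.122) and was higher in lung-recovered than in ITGB4-low (log2 fold change 0.17 with SE 0.05, edgeR adjusted p = 0.00807). TBRG1 was not called either (0.10).

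ATM and NPAT start 429 bases apart on opposite strands, and 7 other pairs of members share such a head-to-head arrangement, with starts at most 1000 bases apart in RefSeq (GRCh38.p14). Pairs were sought only among the 102 members matched to a RefSeq promoter, so 35 members were left out and the 8 pairs are a minimum. In 4 of the 8 pairs both genes had the same sign for ITGB4-low over ITGB4-high, and in 3 both were called in the same direction: NPAT and ATM, RPS25 and TRAPPC4 (0.40 and 0.80), and C11orf71 and RBM7 (0.89 and 0.17). The genes of each of these 3 pairs overlap on opposite strands, and genes that overlap them held 189% of the counts of NPAT, 1182% of those of TRAPPC4 and 2448% of those of C11orf71. Since the strand setting of the counting is not given, reads may have been exchanged within these pairs; the part of this in their shared direction was not tested. The median absolute difference within pairs was 0.52, beside 0.53 over all 136 pairs of neighbouring members. Of those 136 pairs, 87 had the same sign. NPAT and ATM also lie in the segment CWF19L2 to C11orf1, where all 19 members had negative values, so their shared fall is not particular to the pair. PCSK7 and RNF214, with starts 598 bases apart, were called in opposite directions (0.49 and -0.27). Some of these calls were weak: RNF214 was no longer called with DESeq2, with upper-quartile scaling or when 1 of 4 dish-grown libraries was left out (either ITGB4-high library, ITGB4-low replicate 2 or 3), RBM7 was lost with DESeq2, with no low-count filter, with the replicate block and without any 1 of 6 libraries (each lung-recovered library, ITGB4-high replicate 2, ITGB4-low replicate 2 or 3), and C11orf71 without ITGB4-high replicate 2. The pairs named here were picked after their values were seen. The 250 bases before each start are shown for the pair that fell together and the pair that split, in lower case with CCAAT and GGGCGG in capitals, read on either strand (ATTGG and CCGCCC on the other).
NPAT: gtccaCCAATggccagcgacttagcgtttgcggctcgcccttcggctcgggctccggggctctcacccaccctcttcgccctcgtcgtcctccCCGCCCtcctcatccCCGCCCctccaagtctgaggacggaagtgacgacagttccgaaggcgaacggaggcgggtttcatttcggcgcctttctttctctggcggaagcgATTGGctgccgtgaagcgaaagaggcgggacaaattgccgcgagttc
ATM: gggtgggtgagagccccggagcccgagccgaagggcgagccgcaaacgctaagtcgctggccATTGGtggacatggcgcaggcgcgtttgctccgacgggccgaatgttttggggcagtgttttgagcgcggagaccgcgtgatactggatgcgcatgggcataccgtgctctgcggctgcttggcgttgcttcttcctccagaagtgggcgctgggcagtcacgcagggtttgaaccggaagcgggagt
PCSK7: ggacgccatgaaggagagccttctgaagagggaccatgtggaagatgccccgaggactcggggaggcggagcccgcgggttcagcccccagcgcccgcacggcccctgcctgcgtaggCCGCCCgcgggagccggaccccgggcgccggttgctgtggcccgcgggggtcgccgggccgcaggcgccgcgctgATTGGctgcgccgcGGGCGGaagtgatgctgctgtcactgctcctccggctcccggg
RNF214: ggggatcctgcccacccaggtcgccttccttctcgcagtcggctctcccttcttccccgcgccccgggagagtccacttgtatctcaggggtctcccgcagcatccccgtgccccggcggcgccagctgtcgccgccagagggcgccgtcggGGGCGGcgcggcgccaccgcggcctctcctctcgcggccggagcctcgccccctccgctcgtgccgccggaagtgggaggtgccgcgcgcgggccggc
They span chr11:108222639-108222888 for NPAT (minus strand), chr11:108222817-108223066 for ATM (plus strand), chr11:117232074-117232323 for PCSK7 (minus strand) and chr11:117232421-117232670 for RNF214 (plus strand). Those of NPAT and ATM overlap, so that 1 CCAAT box stands in both. In the promoters of RefSeq, 102 of the 137 members were matched. Of these, 36.3% held CCAAT and 68.6% GGGCGG within the 250 bases, against 33.0% and 42.3% of 27305 promoters, while TATAAA was found in 1.96% against 11.1%. The median number of CpG was 21 per promoter in members and 11 in all promoters. The table of all promoters includes genes that these cells do not express, and a match is no binding site.

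Adhesion and cell surface members held the widest range of the role lists for ITGB4-low over ITGB4-high, from -2.75 to 3.65. The lower end is MPZL2, with 5 counts over the ITGB4-low libraries, and the next lowest is NECTIN1 at -2.04. Of 10 members, 5 were higher and 3 lower in ITGB4-low against ITGB4-high (median 0.37), and 3 were higher and 3 lower in lung-recovered against ITGB4-low (0.0006). NCAM1 (ENSG00000149294, chr11:112961247-113278436), the neural cell adhesion molecule CD56, had 83.4, 75.2 and 81.3 CPM in lung-recovered, 124.6, 129.9 and 137 CPM in ITGB4-low and 9.85 and 10.9 CPM in ITGB4-high libraries. It rose in ITGB4-low (log2 fold change 3.65 with SE 0.07, edgeR adjusted p = 2.00e-18), the largest called rise among members at 5 CPM or more, and was lower in the lung-recovered cells than in the dish-grown clone (log2 fold change -0.70 with SE 0.05, edgeR adjusted p = 1.42e-09). CADM1 (chr11:115169218-115504957), an immunoglobulin-type adhesion molecule studied as a tumour suppressor, had 36.9, 32.3 and 36.3 CPM in lung-recovered, 37.6, 41.8 and 42.5 CPM in ITGB4-low and 111 and 113 CPM in ITGB4-high libraries. It fell in both clone 1 groups (log2 fold change -1.46 with SE 0.06, edgeR adjusted p = 1.08e-13 for ITGB4-low and log2 fold change -1.67 with SE 0.06, edgeR adjusted p = 2.69e-14 for lung-recovered over ITGB4-high). NECTIN1 (chr11:119623408-119729084), a partner of cadherins at adherens junctions and an entry receptor of herpes simplex virus, had 75.0, 69.2 and 71.9 CPM in lung-recovered, 29.2, 30.4 and 29.5 CPM in ITGB4-low and 121 and 124 CPM in ITGB4-high libraries. It was lowest in the dish-grown clone (log2 fold change -2.04 with SE 0.05, edgeR adjusted p = 7.44e-17) and stood between both dish-grown groups in the lung-recovered cells (log2 fold change 1.28 with SE 0.05, edgeR adjusted p = 1.33e-13 against ITGB4-low and log2 fold change -0.76 with SE 0.05, edgeR adjusted p = 1.32e-10 against ITGB4-high). CLMP (chr11:123069865-123195281), an adhesion molecule of tight junctions, followed another order, with 722, 683 and 707 CPM in lung-recovered, 501, 480.1 and 496 CPM in ITGB4-low and 276 and 288 CPM in ITGB4-high libraries. It was highest in the lung-recovered cells (log2 fold change 0.52 with SE 0.04, edgeR adjusted p = 5.80e-09 against ITGB4-low and log2 fold change 1.32 with SE 0.05, edgeR adjusted p = 2.15e-14 against ITGB4-high). MPZL2, an epithelial member of the myelin P0 family, rested on 65 counts in all, with 32 in lung-recovered, 5 in ITGB4-low and 28 in ITGB4-high libraries.

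**Figure D4:**
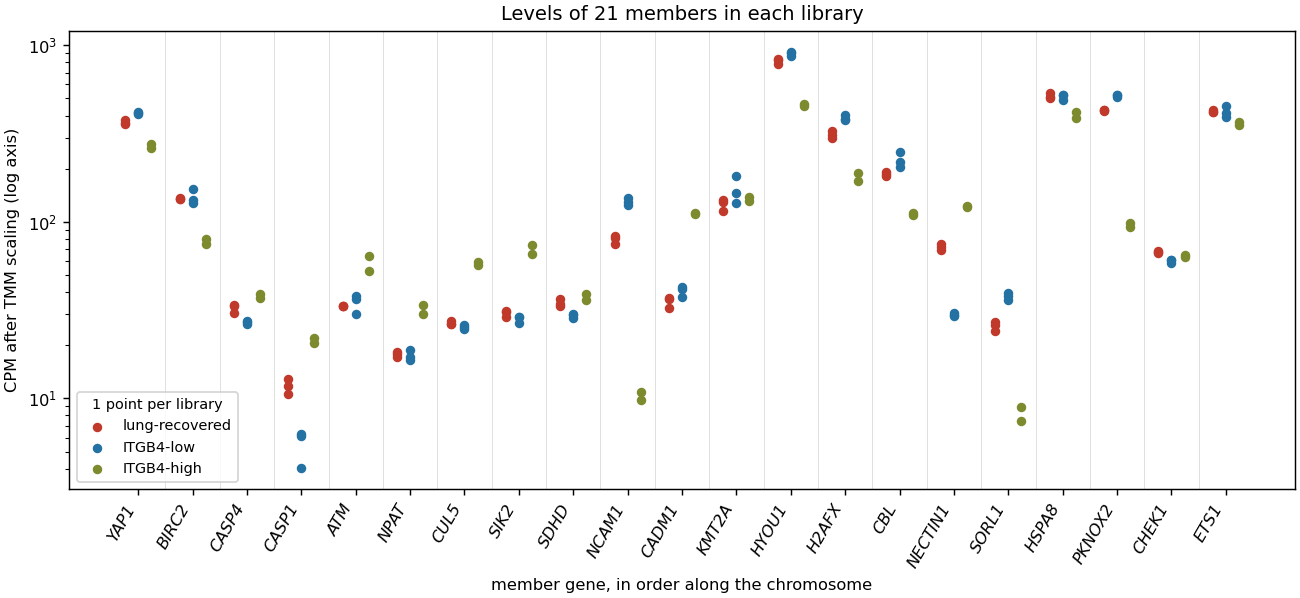
Level in CPM after TMM scaling (vertical axis, log scale) of 21 members in order along the chromosome (horizontal axis), with 1 point per library, lung-recovered left, ITGB4-low in the middle and ITGB4-high right. ATM, NPAT, CUL5, SIK2 and CADM1 lie highest in both ITGB4-high libraries, HYOU1, CBL, SORL1, PKNOX2 and NCAM1 lowest, and CASP1 and NECTIN1 lie lowest in the ITGB4-low libraries.

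SIK2 (chr11:111602391-111730853), a salt-inducible kinase that phosphorylates CREB co-activators, had 31.2, 29.03 and 30.8 CPM in lung-recovered, 26.7, 28.8 and 28.97 CPM in ITGB4-low and 74.3 and 65.8 CPM in ITGB4-high libraries. ITGB4-low stood below ITGB4-high (log2 fold change -1.31 with SE 0.07, edgeR adjusted p = 1.38e-12). Its relative SIK3, in the mixed middle of the stretch, had a log2 fold change of 0.04 that was not called. CBL (chr11:119206276-119313926), the ubiquitin ligase that sends activated receptor tyrosine kinases for breakdown, had 186, 193 and 181 CPM in lung-recovered, 247, 203 and 219.6 CPM in ITGB4-low and 109.9 and 112 CPM in ITGB4-high libraries. This was a rise in ITGB4-low (log2 fold change 1.01 with SE 0.06, edgeR adjusted p = 7.27e-11). RNF26, a ubiquitin ligase of the endoplasmic reticulum, had 279.8, 276 and 272 CPM in lung-recovered, 308, 347 and 341 CPM in ITGB4-low and 152 and 143 CPM in ITGB4-high libraries. Its log2 fold changes were 1.17 for ITGB4-low over ITGB4-high and -0.27 for lung-recovered over ITGB4-low, both called, and the lung-recovered libraries lay between both dish-grown groups. USP2, a deubiquitinase, had 11.1, 11.1 and 10.3 CPM in lung-recovered, 16.2, 19.2 and 17.3 CPM in ITGB4-low and 8.11 and 6.74 CPM in ITGB4-high libraries. It had the same order (log2 fold change 1.24 with SE 0.11, edgeR adjusted p = 7.48e-09 for ITGB4-low over ITGB4-high and log2 fold change -0.70 with SE 0.09, edgeR adjusted p = 5.67e-06 for lung-recovered over ITGB4-low).

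Of 15 secretory pathway members and chaperones, 11 were higher and 3 lower in ITGB4-low against ITGB4-high (93.3% called, median 0.52), beside 28.6% higher and 27.6% lower of all genes tested. Against ITGB4-high, 9 were higher and 3 lower in lung-recovered (0.49), beside 26.2% and 25.0%. Of the 15, 1 starts at 100 to 110 Mb, 10 at 110 to 120 Mb and 4 at 120 to 130 Mb, and in both of these outer bins more members of any role were called higher than lower. HYOU1 (ENSG00000149428, chr11:119044189-119057202), a chaperone of the endoplasmic reticulum, had 832, 787 and 821 CPM in lung-recovered, 867, 916 and 899 CPM in ITGB4-low and 465 and 454 CPM in ITGB4-high libraries. ITGB4-low exceeded ITGB4-high (log2 fold change 0.96 with SE 0.05, edgeR adjusted p = 1.37e-12). VPS11, a subunit of the complexes that tether vesicles to lysosomes, had 90.1, 93.7 and 92.7 CPM in lung-recovered, 90.6, 94.9 and 95.9 CPM in ITGB4-low and 47.2 and 42.2 CPM in ITGB4-high libraries. It was likewise higher in ITGB4-low (log2 fold change 1.07 with SE 0.06, edgeR adjusted p = 4.76e-12). SORL1 (chr11:121452203-121633693), a sorting receptor that steers cargo between the Golgi and endosomes, had 23.99, 27.2 and 26.1 CPM in lung-recovered, 39.5, 36.1 and 37.9 CPM in ITGB4-low and 8.90 and 7.40 CPM in ITGB4-high libraries. It rose most of the list (log2 fold change 2.21 with SE 0.09, edgeR adjusted p = 8.99e-14) and was lower in the lung-recovered cells than in the dish-grown clone (log2 fold change -0.55 with SE 0.07, edgeR adjusted p = 3.10e-06). ALG9, a mannosyltransferase that builds N-glycans, lies in the segment CWF19L2 to C11orf1 and had 6.55, 5.58 and 7.48 CPM in lung-recovered, 6.07, 6.47 and 6.80 CPM in ITGB4-low and 12.1 and 13.3 CPM in ITGB4-high libraries. It was lower in ITGB4-low (log2 fold change -0.97 with SE 0.12, edgeR adjusted p = 1.00e-06). HSPA8 (chr11:123057489-123063230), the constitutive HSC70 chaperone, had 508, 535 and 505 CPM in lung-recovered, 491, 526 and 524 CPM in ITGB4-low and 419 and 387 CPM in ITGB4-high libraries. The step to ITGB4-low was smaller (log2 fold change 0.35 with SE 0.05, edgeR adjusted p = 7.84e-06). CRYAB, a small heat shock protein, had 1.22, 1.37 and 1.504 CPM in lung-recovered, 2.14, 3.99 and 3.98 CPM in ITGB4-low and 2.26 and 1.99 CPM in ITGB4-high libraries. It was lower in the lung-recovered cells than in the dish-grown clone (log2 fold change -1.31 with SE 0.23, edgeR adjusted p = 2.06e-04); its call against ITGB4-high in ITGB4-low (log2 fold change 0.67 with SE 0.24, edgeR adjusted p = 0.0216) had overlapping libraries and was lost when any 1 of 4 libraries was left out (either ITGB4-high library, ITGB4-low replicate 2 or 3). BACE1, a beta-secretase, was not called for ITGB4-low over ITGB4-high (-0.08).

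**Figure D5:**
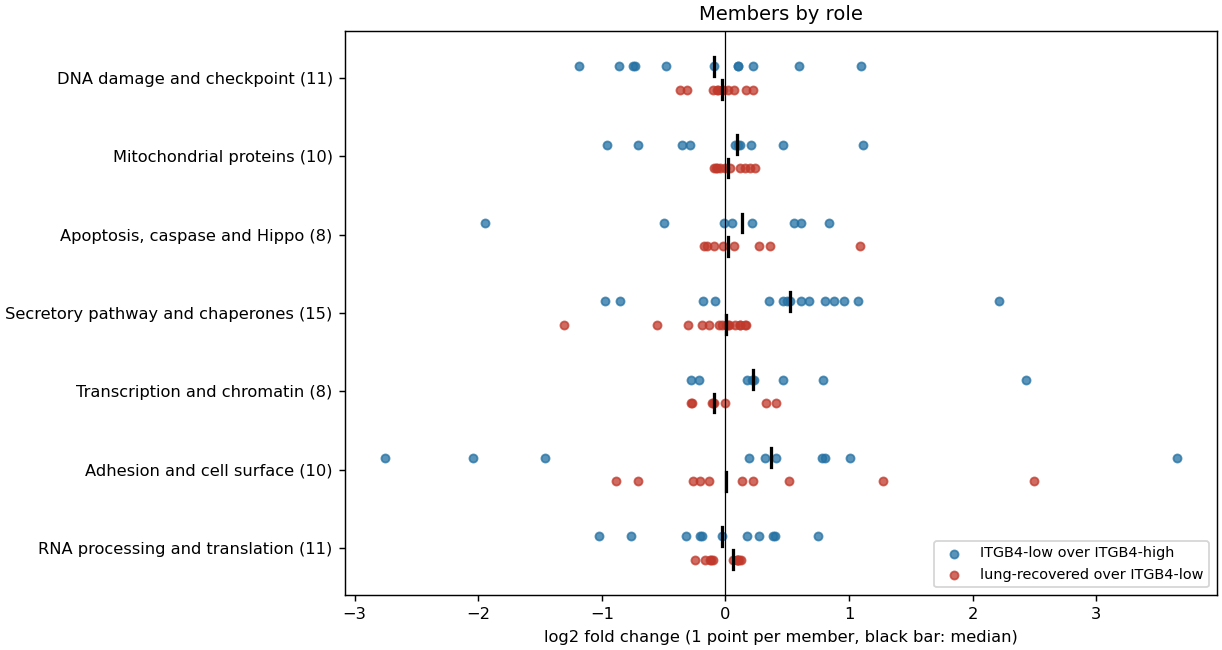
Log2 fold change (horizontal axis) of the members of 7 role lists (vertical axis, number of members in brackets), 1 point per member and a black bar at the list median, for ITGB4-low over ITGB4-high and lung-recovered over ITGB4-low. The secretory list has the highest median for ITGB4-low over ITGB4-high (0.52).

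Of 8 transcription and chromatin members, 3 start at 110 to 120 Mb, 5 at 120 to 130 Mb and none in the first bin. Here 5 were higher and 1 lower in ITGB4-low against ITGB4-high (75.0% called, beside 56.2% of all genes tested and 78.8% of members; median 0.22), and 2 were higher and 2 lower in lung-recovered against ITGB4-low (-0.10). PKNOX2 (ENSG00000165495, chr11:125164687-125433389), a homeodomain partner of PBX and HOX proteins, had 429.7, 426 and 428 CPM in lung-recovered, 525, 509 and 522 CPM in ITGB4-low and 98.4 and 93.9 CPM in ITGB4-high libraries. Again the 3 groups did not overlap: it was higher in ITGB4-low than in ITGB4-high (log2 fold change 2.43 with SE 0.05, edgeR adjusted p = 1.83e-18) and lower in lung-recovered than in ITGB4-low (log2 fold change -0.28 with SE 0.04, edgeR adjusted p = 1.54e-05). ZNF202, a zinc finger repressor, had 83.4, 81.8 and 79.4 CPM in lung-recovered, 97.3, 80.8 and 84.3 CPM in ITGB4-low and 51.2 and 50.2 CPM in ITGB4-high libraries. In ITGB4-low it was higher (log2 fold change 0.79 with SE 0.07, edgeR adjusted p = 5.19e-09). NFRKB, a subunit of the INO80 chromatin remodelling complex, was highest in the lung-recovered cells, with 24.7, 23.1 and 23.2 CPM in lung-recovered, 21.5, 16.8 and 18.2 CPM in ITGB4-low and 13.1 and 14.2 CPM in ITGB4-high libraries. The oncogenic transcription factor ETS1, beside the outer end, had 419, 428 and 417 CPM in lung-recovered, 456, 394 and 415 CPM in ITGB4-low and 353 and 366 CPM in ITGB4-high libraries. ITGB4-low was slightly above ITGB4-high (log2 fold change 0.23 with SE 0.05, edgeR adjusted p = 0.00113). ZBTB16, a BTB zinc finger repressor, was the 1 member of this list that fell (log2 fold change -0.28 with SE 0.06, edgeR adjusted p = 3.96e-04). KMT2A, a histone H3 lysine 4 methyltransferase, was not called for ITGB4-low over ITGB4-high (log2 fold change 0.17 with SE 0.09, edgeR adjusted p = 0.124). It was called lower in lung-recovered than in ITGB4-low (log2 fold change -0.27 with SE 0.08, edgeR adjusted p = 0.0209), a call lost with DESeq2 (adjusted p = 0.182) and without ITGB4-low replicate 1 (log2 fold change -0.12) or lung-recovered replicate 1 or 3, and its libraries overlapped in the 3 comparisons. PRDM10 was not called for ITGB4-low over ITGB4-high (-0.21) and was higher in lung-recovered than in ITGB4-low (log2 fold change 0.41, edgeR adjusted p = 0.0131).

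The mitochondrial members were divided. Of 10, 3 were higher and 4 lower in ITGB4-low against ITGB4-high (median 0.09), and none was lower and 2 were higher in lung-recovered against ITGB4-low (0.02). ACAT1 (chr11:108121516-108147776), a thiolase of ketone body and isoleucine breakdown, had 57.0, 61.3 and 59.8 CPM in lung-recovered, 55.9, 62.6 and 59.5 CPM in ITGB4-low and 97.7 and 95.7 CPM in ITGB4-high libraries. This was a fall in ITGB4-low (log2 fold change -0.70 with SE 0.05, edgeR adjusted p = 1.46e-09). NLRX1 (chr11:119166568-119184016), a mitochondrial NOD-like receptor, had 84.2, 90.2 and 88.9 CPM in lung-recovered, 88.4, 94.8 and 94.1 CPM in ITGB4-low and 44.8 and 40.6 CPM in ITGB4-high libraries. This was a rise in ITGB4-low (log2 fold change 1.11 with SE 0.06, edgeR adjusted p = 3.92e-12). SDHD, the membrane anchor of succinate dehydrogenase, had 36.5, 34.2 and 33.5 CPM in lung-recovered, 29.8, 28.5 and 29.9 CPM in ITGB4-low and 38.8 and 36.2 CPM in ITGB4-high libraries. It was lower in ITGB4-low than in both other groups (log2 fold change -0.35 with SE 0.06, edgeR adjusted p = 1.14e-04 against ITGB4-high). ATP5MG, a subunit of ATP synthase, was not called for ITGB4-low over ITGB4-high (0.11) and was higher in lung-recovered over ITGB4-low (log2 fold change 0.20 with SE 0.04, edgeR adjusted p = 0.00177). REXO2 was not called (0.10).

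RNA processing and translation members were divided, with 4 higher, 4 lower and 3 not called of 11 in ITGB4-low against ITGB4-high (median -0.03) and 2 lower and none higher in lung-recovered against ITGB4-low (0.06). CWF19L2 (chr11:107326345-107457844), related to a yeast protein of intron lariat debranching, had 33.4, 36.1 and 35.3 CPM in lung-recovered, 38.8, 36.1 and 39.0 CPM in ITGB4-low and 75.8 and 78.6 CPM in ITGB4-high libraries. In ITGB4-low it was lower (log2 fold change -1.02 with SE 0.06, edgeR adjusted p = 8.19e-12). DDX10, an RNA helicase of ribosome assembly, had 38.5, 37.5 and 39.2 CPM in lung-recovered, 44.7, 40.8 and 43.5 CPM in ITGB4-low and 71.2 and 74.7 CPM in ITGB4-high libraries. ITGB4-low stood below ITGB4-high (log2 fold change -0.76 with SE 0.06, edgeR adjusted p = 5.78e-10). RPS25 (chr11:119015712-119018691), a protein of the small ribosomal subunit, had 1217, 1173 and 1239 CPM in lung-recovered, 988, 1155 and 1227 CPM in ITGB4-low and 806 and 891 CPM in ITGB4-high libraries. In ITGB4-low it was higher (log2 fold change 0.40 with SE 0.07, edgeR adjusted p = 5.05e-05). It had the highest level per length of all members, 736 CPM per kb of exon averaged over the libraries, where the median member had 4.68. ZPR1 was not called (-0.03). DCPS, the scavenger of mRNA caps, was called higher (log2 fold change 0.38 with SE 0.11, edgeR adjusted p = 0.00802), a call lost without ITGB4-high replicate 2.

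The other 52 members belonged to none of the role lists, and 26 of them were higher and 15 lower in ITGB4-low against ITGB4-high (median 0.25). This is 78.8% called, the same share as over all members, beside 56.2% of all genes tested. CFAP300 (chr11:102047443-102084560), a factor that assembles the dynein arms of cilia, had 15.4, 15.6 and 15.2 CPM in lung-recovered, 11.7, 12.0 and 11.3 CPM in ITGB4-low and 4.04 and 4.79 CPM in ITGB4-high libraries. It was highest in the lung-recovered cells (log2 fold change 0.40 with SE 0.08, edgeR adjusted p = 9.93e-04 against ITGB4-low). FEZ1, an adaptor of kinesin transport in neurons, had 523, 537 and 514 CPM in lung-recovered, 552, 589 and 592 CPM in ITGB4-low and 196 and 186 CPM in ITGB4-high libraries. ITGB4-low stood above ITGB4-high (log2 fold change 1.60 with SE 0.05, edgeR adjusted p = 1.80e-15). EXPH5, an effector of the vesicle protein RAB27, had 9.58, 7.80 and 7.26 CPM in lung-recovered, 7.92, 6.61 and 8.33 CPM in ITGB4-low and 19.4 and 20.8 CPM in ITGB4-high libraries. It fell in ITGB4-low (log2 fold change -1.39 with SE 0.11, edgeR adjusted p = 3.37e-09). ZC3H12C, an endonuclease of the Regnase family that degrades cytokine mRNAs, had 48.1, 48.9 and 47.1 CPM in lung-recovered, 34.7, 28.6 and 31.6 CPM in ITGB4-low and 65.1 and 73.0 CPM in ITGB4-high libraries. It was lower than in ITGB4-high both in ITGB4-low (log2 fold change -1.13 with SE 0.07, edgeR adjusted p = 4.66e-11) and in lung-recovered cells (log2 fold change -0.52 with SE 0.07, edgeR adjusted p = 2.08e-06), and the lung-recovered libraries lay between the others. ELMOD1, which stimulates GTP hydrolysis by Arf proteins, had 11.5, 12.2 and 11.6 CPM in lung-recovered, 13.7, 14.9 and 15.1 CPM in ITGB4-low and 30.8 and 34.1 CPM in ITGB4-high libraries. It fell in both clone 1 groups (log2 fold changes -1.15 and -1.46 against ITGB4-high). SLC37A2 (chr11:125063067-125090312), a glucose-phosphate transporter of the endoplasmic reticulum, had 41.1, 38.5 and 39.2 CPM in lung-recovered, 19.96, 18.9 and 19.1 CPM in ITGB4-low and 53.6 and 53.5 CPM in ITGB4-high libraries. Like CASP1 and NECTIN1, it was lowest in the dish-grown clone (log2 fold change -1.47 with SE 0.06, edgeR adjusted p = 1.05e-13 against ITGB4-high, and log2 fold change 1.04 with SE 0.06, edgeR adjusted p = 3.10e-11 for lung-recovered over ITGB4-low). ST3GAL4, a sialyltransferase, had 17.1, 16.6 and 16.8 CPM in lung-recovered, 11.4, 10.3 and 9.66 CPM in ITGB4-low and 12.4 and 14.4 CPM in ITGB4-high libraries. It was highest in the lung-recovered cells (log2 fold change 0.69 with SE 0.09, edgeR adjusted p = 4.08e-06 against ITGB4-low). C11orf45 had 5.97, 5.82 and 6.88 CPM in lung-recovered, 9.76, 9.71 and 7.28 CPM in ITGB4-low and 2.64 and 1.87 CPM in ITGB4-high libraries. It was higher than in ITGB4-high both in ITGB4-low (log2 fold change 1.97 with SE 0.18, edgeR adjusted p = 1.52e-08) and in lung-recovered cells (log2 fold change 1.46 with SE 0.19, edgeR adjusted p = 1.88e-06), and lower in lung-recovered than in ITGB4-low (log2 fold change -0.51 with SE 0.14, edgeR adjusted p = 0.00739). TRIM29, a tripartite motif protein, had 17.6, 17.5 and 15.0 CPM in lung-recovered, 20.2, 30.0 and 24.8 CPM in ITGB4-low and 16.9 and 16.1 CPM in ITGB4-high libraries. It was lower in lung-recovered than in ITGB4-low (log2 fold change -0.59 with SE 0.11, edgeR adjusted p = 2.41e-04). VWA5A, named after its values were seen, had 1.81, 1.75 and 2.22 CPM in lung-recovered, 0.486, 0.656 and 0.362 CPM in ITGB4-low and 0.566 and 0.507 CPM in ITGB4-high libraries. It was higher in lung-recovered over ITGB4-low (log2 fold change 1.95 with SE 0.28, edgeR adjusted p = 2.09e-05).

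Among members, TMEM123, YAP1 and BIRC2 had the most counts of the 100 to 110 Mb bin, RPS25, HYOU1 and BCL9L of the 110 to 120 Mb bin, and CLMP, HSPA8 and FEZ1 of the 120 to 130 Mb bin. In the first bin BIRC3, left out by name, held 105942 counts, more than YAP1 and BIRC2. TMEM123 had 648, 615 and 633 CPM in lung-recovered, 628, 704 and 742 CPM in ITGB4-low and 516 and 527 CPM in ITGB4-high libraries; it is a mucin-like membrane protein. BCL9L, a co-activator of beta-catenin, had 469.6, 456 and 463 CPM in lung-recovered, 489, 488 and 501 CPM in ITGB4-low and 445 and 402 CPM in ITGB4-high libraries. Their log2 fold changes for ITGB4-low over ITGB4-high were 0.41 and 0.22. Each of these 9 was higher in ITGB4-low than in ITGB4-high. In the first bin the most abundant members were thus among the 7 higher ones and not among the 17 lower ones. TMEM123, YAP1 and BIRC2 all lie in the segment TRPC6 to TMEM123, whose 6 members were all higher.

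At the edges of the choice, the members with the fewest counts were MPZL2 (65 counts), DRD2 (72) and PIH1D2 (73), and those just short of the minimum BCO2 (42), BTG4 (44) and ESAM (47). By place, the first member TRPC6 had a log2 fold change of 1.52 for ITGB4-low over ITGB4-high and the last, PRDM10, one of -0.21. The nearest tested coding genes before the stretch, CCDC82, JRKL and CNTN5, had 0.38, 0.16 (not called) and 4.03. Those after it, APLP2, ZBTB44 and SNX19, had 0.53, 0.55 and 1.24. For lung-recovered over ITGB4-high CNTN5 had 1.74, which was not called. Of the members, 89 overlap another gene with counts, 46 of them a gene or genes with at least 10% of their own counts. ATM, NPAT, GUCY1A2, SIK2, ZC3H12C, C11orf1, PIH1D2, SDHD, C11orf71, PCSK7, RNF214, BACE1, TRAPPC4, CBL, FEZ1, CHEK1, DCPS and TBRG1 are among these 46, and reads of such overlapping pairs may have been exchanged.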

How the data were processed

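Per the labels' protocols, libraries were made from polyadenylated RNA with a kit that keeps strand by dUTP. The authors deposited raw counts per Ensembl gene, 1 column per library, with STAR 2.7.1a and hg38 named in the submitters' processing notes. No source used here gives the counting program, its strand setting or the annotation release. Of 58336 identifiers, 58216 matched GENCODE 29, which gave symbols, types and positions, and 120 did not. Cultures and mice behind the labelled biological replicates are not named, so the p-values rest on the spread among these libraries, which may be technical. Replicates differed by more than sampling noise (chi-square over degrees of freedom of 1.60 to 6.58).

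All 8 libraries entered 1 edgeR 4.0.16 fit (R 4.3.3, filterByExpr, TMM factors 0.975 to 1.01, a term per group), with quasi-likelihood F tests adjusted by Benjamini-Hochberg over 15220 genes and called at an adjusted p under 0.05. The biological coefficient of variation was 0.0452. Each SE is the log2 fold change over the root of its F. Alternatives were DESeq2 1.42.0, limma 3.58.1 with voom, other scaling, no count filter, a replicate block, other bins or minimum counts, and leaving out each library. The members and the role lists were chosen with earlier results of these data known. Named genes were up to 4 called and 2 not called per role list by size or level, the 5 largest called rises and falls per comparison at 5 CPM or more in a group, and the 3 members with most counts per bin; head-to-head pairs and others outside the rule are marked. The counts of 1 role list are not reported here. Replicate numbers did not pair the libraries (correlations of deviations -0.0748 to 0.0748).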

Additional observations from a re-analysis of the deposited data

How the results depend on the processing

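Under 6 other fits, a higher minimum of counts, inclusion of the genes left out by name and the leaving out of each of 8 libraries, the counts of members called stayed within 1.5 times their reported values in the 3 comparisons. Leaving out 1 library gave 58 to 69 members higher and 36 to 39 lower in ITGB4-low against ITGB4-high, 22 to 25 and 24 to 29 in lung-recovered against ITGB4-low, and 56 to 64 and 32 to 35 in lung-recovered against ITGB4-high. In ITGB4-low against ITGB4-high 87 members were called in all 15 fits, and no called member changed sign in any comparison. With the replicate block, 64 were higher and 39 lower, 23 and 28, and 61 and 36, although the numbers did not pair the libraries; the block moved the median at 120 to 130 Mb in ITGB4-low over ITGB4-high to 0.42 and ended the calls of CRYAB and RBM7. Bin medians moved more. With borders 5 Mb lower, they were 0.38, -0.32 and 0.51 in ITGB4-low over ITGB4-high, and 0.28, -0.52 and 0.54 in lung-recovered over ITGB4-high, so that the first and second bins reversed; with borders 5 Mb higher they were -0.32, 0.51 and 0.46, and -0.52, 0.54 and 0.38. In lung-recovered over ITGB4-low these shifts gave -0.067 at 110 to 120 Mb and -0.024 and 0.0652 at 120 to 130 Mb. Members at 500 or more counts gave -0.72 at 100 to 110 Mb in ITGB4-low over ITGB4-high, and -0.76 at 100 to 110 Mb and 0.39 at 120 to 130 Mb in lung-recovered over ITGB4-high. Upper-quartile scaling gave 0.41 at 120 to 130 Mb in ITGB4-low over ITGB4-high, and the genes left out by name gave -0.66 at 100 to 110 Mb in lung-recovered over ITGB4-high. Leaving out 1 library gave, in bin order, -0.58 to -0.50, 0.21 to 0.25 and 0.38 to 0.43 in ITGB4-low over ITGB4-high, -0.113 to -0.0396, -0.0311 to -0.0084 and -0.0177 to 0.0383 in lung-recovered over ITGB4-low, and -0.74 to -0.63, 0.16 to 0.21 and 0.39 to 0.45 in lung-recovered over ITGB4-high. The cause of these moves was not tested. Members with few counts, such as MPZL2, are limited by depth.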
